A study of Homo sapiens with 4 samples.

Results

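Copper enters cells, is handed from protein to protein and is pumped out again by a small set of dedicated genes, and 9 of these were examined in cadmium-resistant breast cancer cells. They were taken by name from a table of 61541 genes and comprised the importer SLC31A1 and its relative SLC31A2, the cytosolic chaperone ATOX1, the copper pumps ATP7A and ATP7B, the chaperone CCS with its client SOD1, the mitochondrial chaperone COX17, and COMMD1, which takes part in the trafficking of the pumps. All 9 were found, each as a single row. RNA-seq had been performed on MDA-MB-231, a long-established line of human breast cancer cells with mesenchymal features. Control cells were untreated cells of this line kept in ordinary medium (n = 2). Cadmium cells had been passaged for a long time in cadmium sulfate that was raised to 10 µM (n = 2). The labels call the controls biological replicates and the cadmium libraries only replicates. The sources do not say whether the cadmium libraries came from separate selections, so p-values measure the spread between these libraries, which may be technical. The control libraries are called control 2 and control 3 after their columns, and the others cadmium 1 and cadmium 2.

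Free copper is toxic, so cells keep nearly all of it bound. SLC31A1 (CTR1) carries reduced copper across the plasma membrane, after which ATOX1 delivers it to ATP7A and ATP7B, CCS inserts it into superoxide dismutase, and COX17 passes it on for the assembly of cytochrome c oxidase. ATP7A and ATP7B load copper onto enzymes in the secretory pathway and move to the cell surface or vesicles to export it when copper is in excess. Cadmium and copper both bind metallothioneins, the small cysteine-rich proteins whose genes are controlled by MTF-1, the metal-responsive factor examined in the study.

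Libraries held 51934729 to 61916007 reads assigned to genes, of which the 9 copper genes took between 0.0383% and 0.0541%. Levels are given as normalized read counts (counts divided by a DESeq2 size factor) unless stated otherwise. The controls were less alike than the cadmium libraries, since the log2 ratio within the pair had a robust SD of 0.56 for controls and 0.16 for cadmium (12924 genes, mean normalized count 100 or more). For the line, VIM lay between 571 and 714 TPM (a share of all transcripts, per summed exon length) and CD44 between 163 and 203 TPM, while ESR1 and PGR did not exceed 0.0999 and 0.153 TPM. EPCAM ranged from 21.3 to 71.9 TPM and ERBB2 from 34.9 to 47.5 TPM. In bulk RNA, a change in the mixture of cells and a change in RNA per cell cannot be told apart.

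To ask whether copper handling differed between cadmium-resistant and control cells, each gene was read from a DESeq2 fit over all genes. None of the 9 genes passed the threshold of 0.1 on the adjusted p-value, where 1.13% of the 19834 genes tested did. DESeq2 also gave 0 of them an unadjusted p-value below 0.05, against 6.92% of all genes. The edgeR quasi-likelihood test called 0 genes in all, with 7.39% at an unadjusted p-value below 0.05, and SLC31A1 was the single copper gene among those. Limma-voom likewise called 0, with 7.4% of all genes and 0 copper genes at an unadjusted p-value below 0.05. All 9 passed the filter on low counts, the lowest mean being 94.9 for SLC31A2. Log2 fold changes were negative for 7 of 9 genes, with a median of -0.35, against -0.03 for the 18871 genes whose mean normalized count was 10 or more (53.0% negative).

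**Figure D1:**
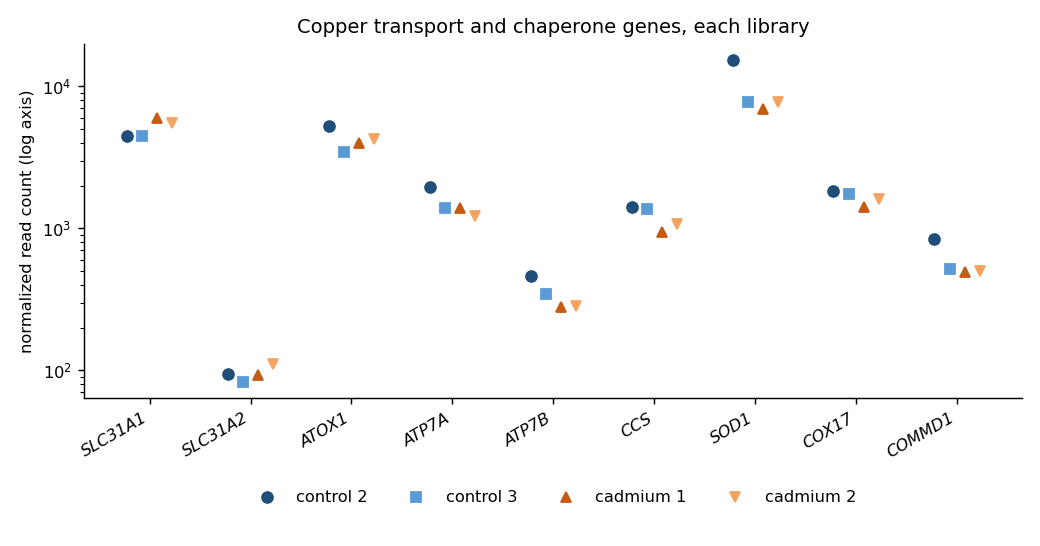
Normalized read counts of the 9 copper genes (log axis) in each of the 4 libraries, with 1 point a library. Control 2 lies above control 3 for every gene, by 0.799% for SLC31A1 and by 96.7% for SOD1, and the cadmium pair lies above both controls for SLC31A1 alone.

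SLC31A1 (ENSG00000136868, chromosome 9, 113221544 to 113264492, hg38, plus strand), the importer, had normalized counts of 4491 and 4455 in control 2 and control 3, and of 5948 and 5544 in cadmium 1 and cadmium 2. The controls were almost equal and both cadmium libraries lay above them. The log2 fold change was 0.36 ± 0.24 (SE), with adjusted p = 0.911 in DESeq2, and the 95% interval of the fold ran from 0.923 to 1.79. Its edgeR value was also 0.36, with an unadjusted edgeR p-value of 0.0497 and an adjusted one of 0.675. It was 0.37 without control 2 and 0.34 without control 3. Over all genes tested, 20.3% likewise had both cadmium libraries above both controls.

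SLC31A2 (chromosome 9, 113150976 to 113164140), a relative of CTR1 found mainly on internal membranes, was expressed far less. Its normalized counts were 93.7 and 82.9 in control 2 and control 3, and 92.6 and 111 in cadmium 1 and cadmium 2. The groups overlapped, and the log2 fold change of 0.20 had a 95% interval from -0.71 to 1.11 and ranged from 0.06 to 0.32 when 1 library was left out. Of its exon bases 64.0% also lay in exons of FKBP15 on the opposite strand, and reads that fell in both were not counted, so the level of SLC31A2 is uncertain. Per summed exon length, SLC31A1 exceeded SLC31A2 by a factor of 23.0 to 30.9 in the 4 libraries. With the length of the canonical transcript the factor was 17.3 to 23.3.

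ATOX1 (ENSG00000177556, chromosome 5, 151742316 to 151772532, minus strand), the chaperone that supplies both pumps, had normalized counts of 5303 (control 2), 3447 (control 3), 3989 (cadmium 1) and 4241 (cadmium 2). Both cadmium libraries thus lay between the controls. The log2 fold change was -0.09 ± 0.31 (SE), with adjusted p = 1.00 in DESeq2 and a 95% interval of the fold from 0.613 to 1.44. Its sign depended on the control that was kept, at 0.25 without control 2 and -0.38 without control 3. ATOX1 shares 130 exon bases with G3BP1 on the opposite strand, in which reads of both genes were not counted.

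The copper pumps were lower in cadmium cells without passing the test. ATP7A (ENSG00000165240, chromosome X, 77910690 to 78050395, plus strand), the form used in most tissues, had normalized counts of 1943 and 1395 in control 2 and control 3, and of 1385 and 1226 in cadmium 1 and cadmium 2. Cadmium 1 and control 3 were nearly the same, and with upper-quartile scaling the groups overlapped. The log2 fold change was -0.35 ± 0.30 (SE), with adjusted p = 1.00 in DESeq2. The fold had a 95% interval from 0.517 to 1.18, and the log2 value was -0.10 without control 2. ATP7A shares 689 exon bases with PGAM4 on the opposite strand, 382 with the pseudogene C4orf46P2 and 97 with PGK1. Reads that fell in ATP7A and one of these were not counted.

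ATP7B (ENSG00000123191, chromosome 13, 51930436 to 52012125, minus strand), the pump best known from liver, had normalized counts of 461 and 343 in control 2 and control 3, against 281 and 284 in the cadmium libraries. Its cadmium libraries were almost equal and lay below both controls. The log2 fold change was -0.51 ± 0.34 (SE), with adjusted p = 0.908 in DESeq2 and a 95% interval of the fold from 0.442 to 1.12, and it was -0.28 without control 2. ATP7A exceeded ATP7B by a factor of 2.72 to 3.30 per summed exon length, and the ratio was 2.82 and 2.72 in the controls and 3.30 and 2.88 in the cadmium libraries.

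CCS and SOD1, a chaperone and the enzyme it matures, both had lower counts in the cadmium libraries but differed in how the controls behaved. CCS (ENSG00000173992, chromosome 11, 66593153 to 66606019, plus strand) had normalized counts of 1405 and 1378 in control 2 and control 3, and of 943 and 1074 in cadmium 1 and cadmium 2. The controls differed by 1.97%, and both cadmium libraries were well below them. The log2 fold change of CCS was -0.46 ± 0.27 (SE), with an unadjusted DESeq2 p-value of 0.0822 and an adjusted one of 0.817. The 95% interval of its fold ran from 0.504 to 1.04, and the log2 value was -0.45 without control 2.

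SOD1 (ENSG00000142168, chromosome 21, 31659666 to 31668931, plus strand), the cytosolic copper-zinc superoxide dismutase, had normalized counts of 15330 (control 2), 7794 (control 3), 6936 (cadmium 1) and 7728 (cadmium 2). Control 2 stood apart, and control 3 was just above cadmium 2. SOD1 had the most negative log2 fold change of the 9 genes, -0.66 ± 0.38 (SE), with adjusted p = 0.813 in DESeq2. The 95% interval of the fold ran from 0.380 to 1.06. Without control 2 the log2 value was -0.09, and with upper-quartile scaling the groups overlapped. Its controls differed by more than those of 85.2% of the 12924 genes, whereas the controls of CCS differed by more than those of 4.02%. The ratio of SOD1 to CCS per summed exon length was 11.8 (control 2) and 6.13 (control 3) against 7.97 (cadmium 1) and 7.80 (cadmium 2), so the controls lay on either side of the cadmium libraries.

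COX17 (ENSG00000138495, chromosome 3, 119654513 to 119677454, minus strand) had normalized counts of 1839 and 1758 in control 2 and control 3, and of 1415 and 1615 in cadmium 1 and cadmium 2. The groups did not overlap, and the log2 fold change was -0.25 ± 0.26 (SE), with adjusted p = 1.00 in DESeq2. Its fold had a 95% interval from 0.590 to 1.20. COX17 shares 383 exon bases, 20% of its own, with POPDC2. Reads in both were not counted, so the POPDC2 count, at most 16 in a library, does not show how many COX17 lost.

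COMMD1 (ENSG00000173163, chromosome 2, 61888724 to 62147247, plus strand) had normalized counts of 839 (control 2), 520 (control 3), 495 (cadmium 1) and 503 (cadmium 2). Control 3 was close to both cadmium libraries. The log2 fold change was -0.45 ± 0.36 (SE), with adjusted p = 0.983 in DESeq2, and it was -0.06 without control 2. The fold had a 95% interval from 0.452 to 1.19. COMMD1 shares 33.6% of its exon bases with the pseudogene RPSAP26 and 11.4% with a noncoding RNA on the opposite strand. Reads in both were not counted, so the reads lost there are not known. Of 6 pseudogenes named after the 9 genes 3 had a read, with at most 13 in a library for COX17P1. Reads matching a gene and a copy equally were counted for neither, so the reads lost to copies are not known.

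**Figure D2:**
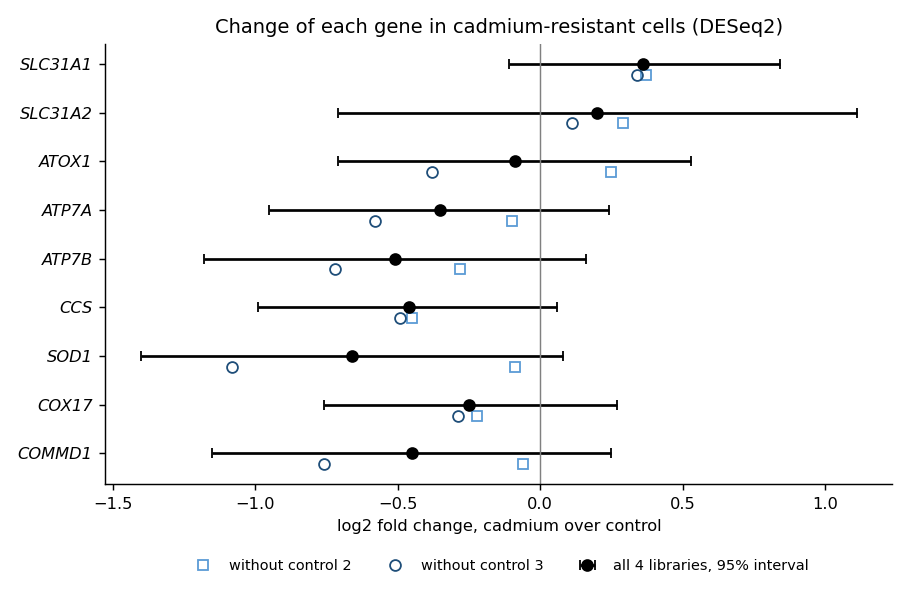
Log2 fold change of each copper gene, cadmium over control, from DESeq2 with all 4 libraries (filled points, bars are 95% intervals) and with either control left out (open points). Every interval includes 0, and leaving out control 2 moved SOD1 from -0.66 to -0.09 and COMMD1 from -0.45 to -0.06 but left CCS at -0.45 and SLC31A1 at 0.37.

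Counted by position, 6 of 9 genes (ATP7A, ATP7B, CCS, SOD1, COX17 and COMMD1) had both cadmium libraries below both controls and 1 (SLC31A1) had both above. Over all 19834 genes tested, 19.9% lay wholly below and 20.3% wholly above. With upper-quartile scaling the lower count was 4, and the higher count was 2 because SLC31A2 joined. The shares over all genes were not computed with that scaling, so these counts have no background. The 4 fits on 3 libraries gave different calls, and the cause was not tested. Each takes its spread from the remaining pair and assumes that the lone library varies like it. Without control 3 DESeq2 called 6 copper genes lower (ATP7A, ATP7B, ATOX1, CCS, SOD1 and COMMD1) and SLC31A1 higher, but it then called 17.7% of all genes lower, 13.5% higher and 31.2% in either direction. Without control 2 it called SLC31A1, at an adjusted p-value of 0.0540, among 7.44% of all genes in that direction and 15% in either. Without cadmium 1 or cadmium 2 it called 0 of the 9, and 0.116% and 0.0406% of all genes.

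The order of the genes by level was read per length, because counts of long transcripts are higher at the same abundance. Per summed exon length SOD1 was highest, at 435 ± 179 TPM in control and 286 ± 14.1 TPM in cadmium cells (SD, n = 2 each). COX17, SLC31A1, ATOX1 and CCS followed in control cells, at 70.8 ± 1.55, 65.5 ± 3.17, 62.4 ± 15.5 and 48.9 ± 1.97 TPM (SD, n = 2). Among these the order of SLC31A1, ATOX1 and COX17 did not hold beyond their spread in control cells. In cadmium cells SLC31A1 came before them, at 86.2 ± 6.61 TPM, with COX17 at 61.1 ± 4.05, ATOX1 at 60.5 ± 0.980 and CCS at 36.3 ± 2.34 TPM (SD, n = 2 each). COMMD1 lay between 17.3 and 27.6 TPM in the 4 libraries. ATP7A ranged from 3.30 TPM to 5 TPM, SLC31A2 from 2.62 to 3.38 TPM and ATP7B from 1.14 to 1.78 TPM. RNA of both pumps was thus far scarcer than RNA of the chaperone that feeds them, and protein was not measured.

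The length used mattered for this order. The count table gives ATOX1 an exon length of 5239 bases, summed over all annotated transcripts, whereas its canonical transcript has 471 bases. With canonical lengths, a choice made after the values were seen, ATOX1 reached 386 ± 96.0 TPM in control and 378 ± 5.27 TPM in cadmium cells (SD, n = 2 each), close to SOD1 at 354 ± 16.7 TPM in cadmium cells. COX17 was then at 177 ± 3.68 TPM in control cells, and SLC31A1 came after CCS there, at 39.3 ± 1.86 against 54.6 ± 2.14 TPM (SD, n = 2 each). ATP7B had the lowest mean in both groups with the summed length, while with canonical lengths SLC31A2 was lower in control cells (2.14 ± 0.0708 against 2.54 ± 0.391 TPM, SD, n = 2 each), within the spread of ATP7B.

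**Figure D3:**
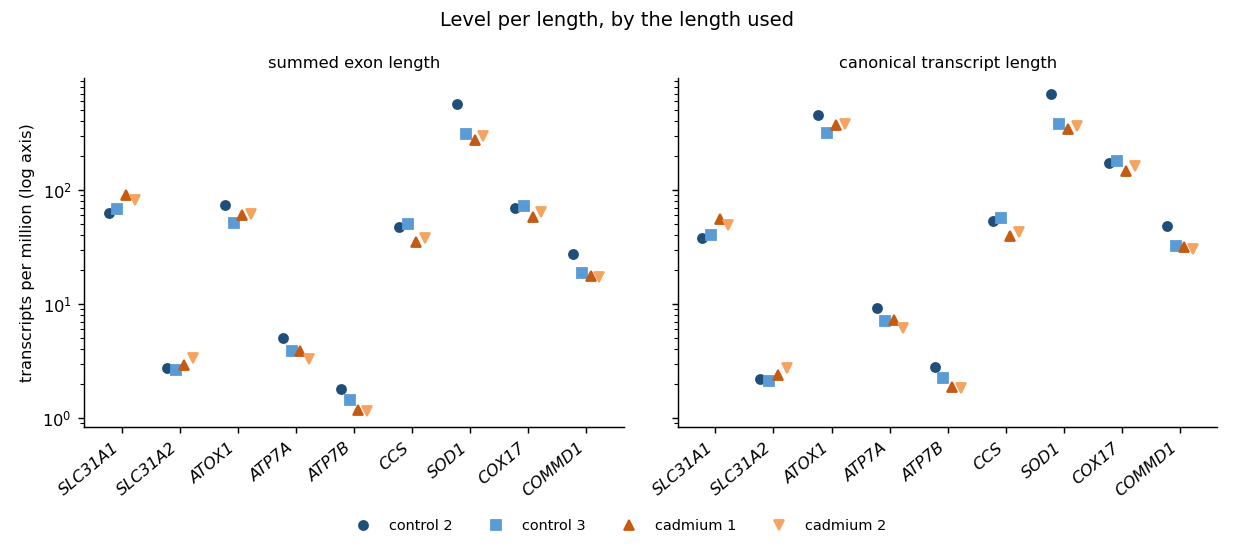
TPM of the 9 copper genes in each library (log axis), computed with the summed exon length of the count table (left) and with the canonical transcript length (right). SOD1 is highest in every library on the left, and on the right ATOX1 spans 318 to 454 TPM against 342 to 690 TPM for SOD1.

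To see whether a copper gene differed from its surroundings, each was set beside the median of the 40 nearest genes on its chromosome (mean normalized count 100 or more), as log2 ratios of normalized counts plus 1. For SOD1 the log2 ratio of control 3 over control 2 was -0.98 while its neighbours on chromosome 21 had a median of -0.45, and 34 of the 40 were lower in control 3. For COMMD1 the values were -0.69 and -0.44, with 31 of 40 neighbours on chromosome 2 lower in control 3. Around CCS, neighbours on chromosome 11 had a median of -0.62, with 34 of 40 lower in control 3, and CCS itself was at -0.03. ATOX1, ATP7A and ATP7B were at -0.62, -0.48 and -0.42, with medians of -0.05, 0.02 and -0.09 around them. SLC31A1, SLC31A2 and COX17 were at -0.01, -0.17 and -0.07, with medians of -0.14, -0.07 and -0.07. Between the controls the neighbours thus moved with SOD1 and COMMD1, by less than those genes, but not with CCS. Around ATOX1, ATP7A and ATP7B they hardly moved. The part of the neighbours in the group values was not tested.

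Between groups, CCS had a log2 ratio (mean cadmium to mean control) of -0.46 and its neighbours a median of -0.39, with 35 of 40 lower in cadmium cells. COMMD1 was at -0.45 with a median of -0.31 around it and 37 of 40 lower. ATP7B was at -0.51 in a segment of chromosome 13 with a median of -0.03, and it was lower than all but 7.50% of its neighbours. SOD1 was at -0.66 with a median of -0.25, ATP7A at -0.35 with a median of -0.02, and SLC31A1 at 0.36 with a median of 0.06. For COX17 the difference from the median around it was -0.24. For ATOX1 and SLC31A2 it was -0.10 and 0.12.

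**Figure D4:**
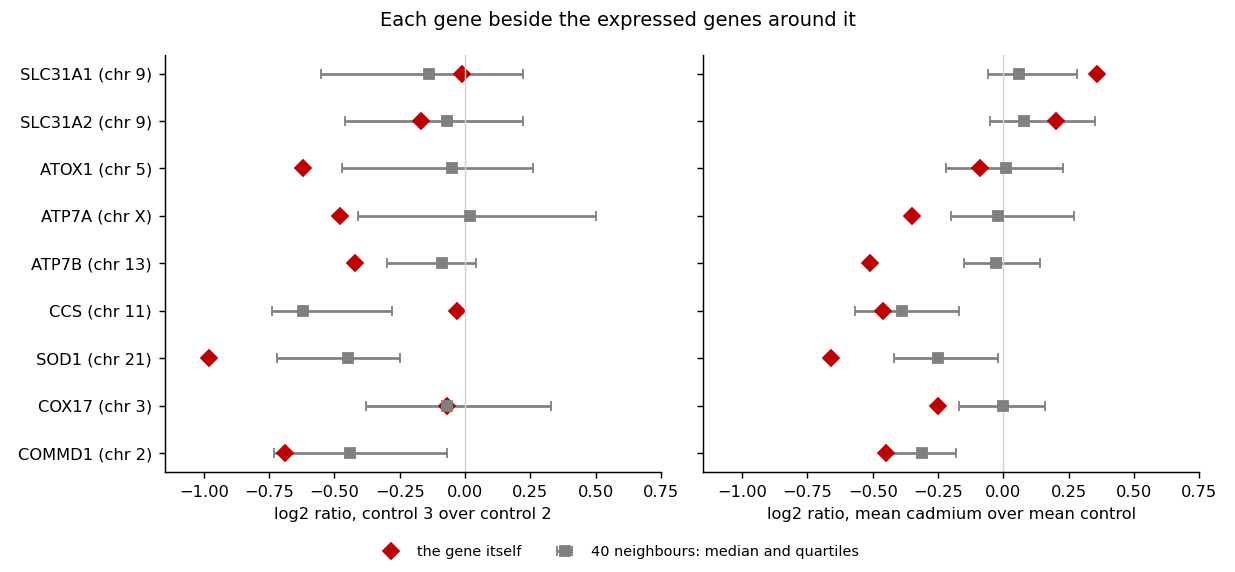
Log2 ratios of each copper gene (red) beside the median and quartiles of its 40 nearest expressed genes (grey), for control 3 over control 2 (left) and mean cadmium over mean control (right). CCS matches its surroundings between groups (-0.46 and -0.39) but not between controls (-0.03 and -0.62), and ATP7B lies below its surroundings in both.

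Promoter sequences were read because the study concerns MTF-1, which binds metal response elements. RefSeq windows on GRCh38.p14, from 250 bases before to 50 after a start, were held for 7 of the 9 genes (12 windows). SLC31A2 and SOD1 had no entry. The core of the metal response element was searched on both strands as TGCACNC or TGCGCNC, an AP-1 site as TGACTCA or TGAGTCA, and the core of the antioxidant response element as TGACNNNGC. The metal response element core occurred in 8 of the 12 windows, in ATP7B, ATOX1, CCS, COX17 and COMMD1, and in 29.6% of 35116 windows of all genes. Windows 1 and 2 of ATP7B overlap and share 1 such site, which is counted in both. Neither ATP7A nor SLC31A1 held the core. GC content of the 12 windows ran from 45.7% to 71.0% and mostly lay above the median of 58.7% over all windows. The share over all windows was not matched for GC content, and these matches describe letters and not binding. The antioxidant core occurred in ATOX1, CCS and COX17 (13.3% of all windows) and the AP-1 letters in 1 window, of ATP7B (4.95% of all windows).

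The 250 bases before the start are shown for ATOX1 and CCS, in which the core occurs as a palindrome read on both strands close to the start, and for SLC31A1, the gene with higher counts in cadmium cells, which has no such core. Capitals mark matches, GTGCGCAC being the doubled metal response element core and TGACGAAGC the antioxidant core.
ATOX1, chr5:151758632-151758881, minus strand: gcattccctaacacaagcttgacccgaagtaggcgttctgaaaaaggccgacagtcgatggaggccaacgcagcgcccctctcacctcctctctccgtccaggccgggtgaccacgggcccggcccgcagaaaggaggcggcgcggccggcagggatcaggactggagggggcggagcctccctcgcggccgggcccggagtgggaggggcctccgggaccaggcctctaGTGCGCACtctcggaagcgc
CCS, chr11:66592935-66593184, plus strand: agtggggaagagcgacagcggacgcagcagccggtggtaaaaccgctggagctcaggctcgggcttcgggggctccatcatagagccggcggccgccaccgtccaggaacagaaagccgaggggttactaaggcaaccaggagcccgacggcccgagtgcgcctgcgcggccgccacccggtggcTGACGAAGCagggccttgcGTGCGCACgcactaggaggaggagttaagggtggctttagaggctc
SLC31A1, chr9:113221294-113221543, plus strand: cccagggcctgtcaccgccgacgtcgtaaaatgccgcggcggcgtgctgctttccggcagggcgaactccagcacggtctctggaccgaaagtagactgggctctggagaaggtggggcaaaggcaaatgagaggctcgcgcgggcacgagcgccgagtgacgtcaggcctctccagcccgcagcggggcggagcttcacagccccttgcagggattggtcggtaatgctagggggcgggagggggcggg
The palindrome begins 20 bases before the start in ATOX1 and 46 bases before it in CCS. Of the genes with the palindrome, CCS had lower counts in both cadmium libraries and ATOX1 lay between the controls.

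Further genes of copper biology were read from 6 lists with 66 genes in all. These lists were chosen with earlier results of these data known, so their calls and the share over all genes are not an independent comparison. Across 61 of them with a mean normalized count of 10 or more, DESeq2 called 0 higher and 3 lower at an adjusted p-value below 0.1, where 0.6% and 0.534% of all genes tested were called in those directions. The 3 were LOXL1, LOXL4 and MOXD1, all from the list of secreted and secretory-pathway copper enzymes, the proteins that receive copper downstream of the pumps. That list had 11 of 16 genes at the count minimum, with a median log2 fold change of -0.36, 4 positive and 7 negative. HEPH, TYR and AOC1 had 0 reads in every library. By counting error this allows up to 3 counts in each, or more because the mates of a read pair were counted separately.

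LOXL1 (ENSG00000129038, chromosome 15, 73925989 to 73952137), a lysyl oxidase that crosslinks elastin, fell from 1455 and 1077 normalized counts in control 2 and control 3 to 435 and 570 in cadmium 1 and cadmium 2. Both cadmium libraries lay below both controls. Its log2 fold change was -1.33 ± 0.33 (SE), with adjusted p = 0.0103 in DESeq2. MOXD1 (chromosome 6, 132296055 to 132401475), a monooxygenase related to dopamine beta-hydroxylase, fell from 470 and 609 to 177 and 244, with a log2 fold change of -1.36 ± 0.36 (SE) and adjusted p = 0.0285 in DESeq2. LOXL4 (chromosome 10, 98247690 to 98268194), another lysyl oxidase, fell from 3223 and 5197 to 1990 and 2007, with a log2 fold change of -1.07 ± 0.33 (SE) and adjusted p = 0.0962 in DESeq2. These calls were lost with edgeR (adjusted p-value 0.674 for each) and limma-voom (0.669 for each), and without cadmium 1 or cadmium 2. LOXL4 was also lost in DESeq2 with upper-quartile scaling, at adjusted p = 0.164, and without filtering, at 0.162. Its log2 fold change was -0.70 without control 3. In simulated data with 200 genes changed 2-fold, DESeq2 recovered 38.0% of them and made 109 false calls at the same threshold.

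The other enzymes of the list had values on both sides. LOXL2, a further lysyl oxidase, had 23235 and 25586 normalized counts in the controls and 18479 and 19033 under cadmium, with a log2 fold change of -0.38 and adjusted p = 0.894 in DESeq2. LOX, which crosslinks collagen, was at 3718 in control 2 and between 1837 and 2211 in the other libraries, so that its groups overlapped. SOD3, the extracellular superoxide dismutase, was at 1822 in control 2 and 4681 in control 3, with the cadmium libraries between them. AOC3, named after its values were seen, had normalized counts of 26.5 and 92.5 in the controls and 263 and 179 under cadmium, with a log2 fold change of 1.90 and adjusted p = 0.176 in DESeq2.

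**Figure D5:**
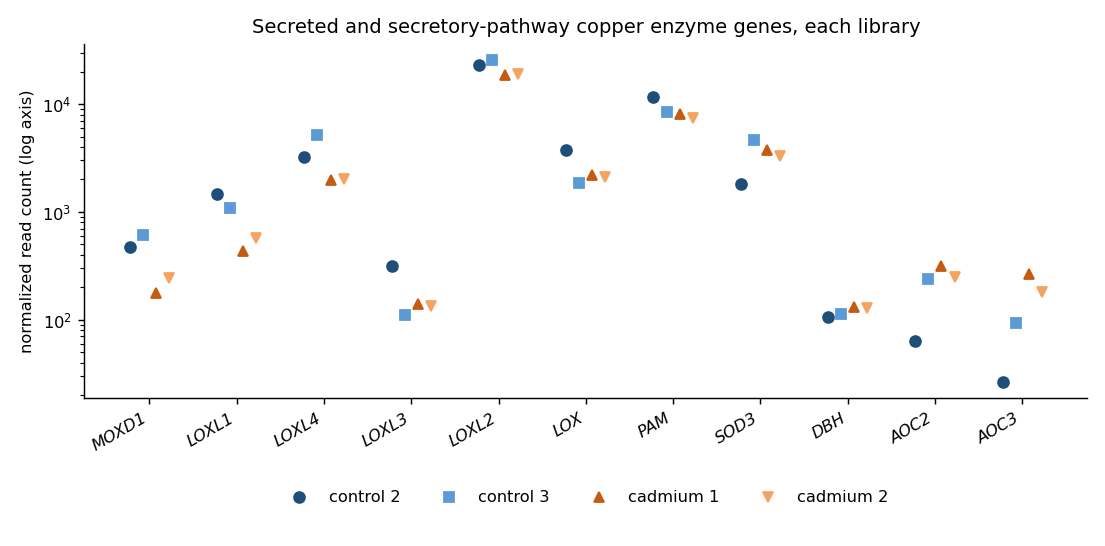
Normalized read counts (log axis) of the 11 secreted and secretory-pathway copper enzyme genes with a mean of at least 10, in each library, ordered by log2 fold change. MOXD1, LOXL1 and LOXL4, on the left, have both cadmium libraries below both controls, with cadmium counts of 177 to 244, 435 to 570 and 1990 to 2007.

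In the remaining lists DESeq2 called 0 genes, and 1 gene had an unadjusted p-value below 0.05, CCDC22. Mitochondrial copper delivery, which takes copper from COX17 to cytochrome c oxidase, had a median log2 fold change of -0.08 over 10 genes, and its lowest p-values belonged to CMC1 (-0.36), CMC2 (-0.40) and the mitochondrial phosphate and copper carrier SLC25A3 (0.14), with adjusted p = 0.951, 0.972 and 1.00 in DESeq2. The COMMD family and the complex it works in had a median of -0.03 over 14 genes. Within it CCDC22, which binds COMMD proteins, had normalized counts of 812 and 993 in the controls against 1363 and 1346 under cadmium, and its log2 fold change was 0.59 at DESeq2's adjusted p = 0.633, while its partner VPS35L was at -0.42 (0.839) and CCDC93 at 0.32 (0.993). The choice of control moved CMC2 to -0.17 without control 2 and -0.61 without control 3, and CCDC93 to 0.48 and 0.16.

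Metal reductases and divalent metal uptake had a median of -0.55 over 6 genes. Of these CYBRD1, a ferric and cupric reductase, had 8594 and 5323 normalized counts in the controls and 4535 and 4521 under cadmium, with a log2 fold change of -0.62 and adjusted p = 0.740 in DESeq2. STEAP2 was at -0.65 (0.791) and STEAP3 at -0.48 (0.994), the latter turning to 0.21 without control 2 and to -0.96 without control 3. CYBRD1 was at -0.24 without control 2 and -0.94 without control 3, and STEAP2 at -0.93 and -0.33. Other copper-binding or copper-regulated genes had a median of -0.16 over 9 genes, with the glutaredoxin GLRX at 0.52 (0.776), XIAP at 0.62 (0.900) and MEMO1 at -0.75 (0.911). Without control 2 these became 0.34, 0.17 and -0.10, and without control 3 they became 0.71, 1.25 and -1.21. The lipoylation list, whose proteins are sensitive to excess copper, had a median of -0.17 over 11 genes, with FDX1 at -0.29, DLD at -0.27 and LIPT1 at -0.47, each at DESeq2's adjusted p = 1.00. Without control 2 these became -0.08, -0.09 and 0.19, and without control 3 -0.48, -0.44 and -0.93.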

How the data were processed

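Total RNA of 2 control and 2 cadmium libraries was sequenced as read pairs. The authors trimmed adaptors with bbduk, aligned reads to hg38 with HISAT2 and counted them per gene with featureCounts 2.0.1 on an Ensembl annotation. The deposited values are raw counts. Per the file headers no option for strand, pairs or multi-mapping was set, so mates were counted separately (70.6% to 71.5% of counts from 1 to 20 were even), which makes counting error larger than the counts give, and reads shared by several genes were left out. Symbols matched 61369 of 61541 genes. Control columns carry the numbers 2 and 3 and the labels 1 and 2, so they were assigned by group.

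Genes were tested with DESeq2 1.42.0 in R 4.3.3 (Wald test, two-sided, median-of-ratios size factors of 0.940 to 1.06, Benjamini-Hochberg adjustment, threshold 0.1). The study used DESeq2 too, in another version, and these settings were chosen here. The filter removed means below 7.65. Intervals are 95% normal intervals of the fit. Alternatives were edgeR 4.0.16 and limma-voom (limma 3.58.1), scaling by TMM or by upper quartile, no filter, at least 10 counts in 2 libraries, a threshold of 0.05, protein-coding genes, and leaving out each library. The scripts were tested on simulated data for this comparison (33455 genes, 200 changed): DESeq2 recovered 38.0% of 2-fold and 89.5% of 4-fold changes with 109 and 115 false calls, and edgeR 0% and 78.0%. The simulation gave each gene the same spread in both groups, whereas the real controls were less alike than the cadmium libraries. TPM was computed from the counts and the deposited exon length. The genes and lists were chosen with earlier results of these data known. Named list genes were the 3 with the lowest unadjusted p-value per list (mean of at least 50) and every called gene. The annotation used for canonical transcripts was GENCODE on the same assembly. Protein sequences were not used here.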

Additional observations from a re-analysis of the deposited data

How the results depend on the processing

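With 2 libraries per group, changes of 2-fold were often missed by every test, and every 95% interval of the fold of the 9 copper genes included 1. No paired analysis was possible because controls are numbered 2 and 3 in the count table and 1 and 2 in the labels. With edgeR, limma-voom, TMM or upper-quartile scaling, the stricter count filter or protein-coding genes only, the fold changes of the 9 genes kept their sign and 0 were called.

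Leaving out each library in turn gave 0 to 1 copper genes called higher and 0 to 6 called lower, against 9 to 2677 and 4 to 3510 over all genes, 0 to 8 and 0 to 23 over the copper-related lists, and 0 to 3 and 0 to 7 over the secreted enzymes. Log2 fold changes ranged from -0.58 to -0.10 for ATP7A, -0.72 to -0.28 for ATP7B, 0.30 to 0.41 for SLC31A1, -0.38 to 0.25 for ATOX1, -0.56 to -0.38 for CCS, -1.08 to -0.09 for SOD1 and -0.76 to -0.06 for COMMD1. For list genes they ranged from -0.05 to 0.35 for SLC25A3, -0.96 to 0.21 for STEAP3 and -0.93 to 0.19 for LIPT1. With 1 library left out, 1 to 3 copper genes had the remaining cadmium libraries above the remaining controls, and 6 to 7 below. With fewer libraries the groups overlap less readily. The matching shares over all genes were not computed, so these counts have no background.

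With edgeR and with limma-voom, 0 genes were called in either direction over all genes (DESeq2 called 119 higher and 106 lower), 0 in the lists and 0 among the secreted enzymes. They gave 1422 and 1423 genes an unadjusted p-value below 0.05. With upper-quartile factors 152 genes were called higher and 88 lower. Under that scaling 2 copper genes lay above both controls and 4 below, without a matching share over all genes. The cause of these differences was not tested. Canonical lengths, chosen after seeing the data, moved the share of the summed TPM of the 9 genes held by ATOX1 from 9.83% to 34.0%, SOD1 from 55.6% to 38.4% and SLC31A1 from 12.6% to 4.21%. With 20 neighbours in place of 40, the difference from the median around the gene went from -0.33 to -0.21 for ATP7A, from 0.12 to 0.19 for SLC31A2 and from 0.30 to 0.35 for SLC31A1.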
